A study of Rattus norvegicus with 6 samples.

Results

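The genes described here encode the subunits of the mTOR kinase complexes, the TSC genes that restrain mTOR, the insulin receptor and its substrates, as measured in rat atrial fibroblasts. The members were chosen by symbol and number 10 of the 40154 genes in the deposited gene table: Mtor, Mlst8, Rptor, Rictor, Deptor, Tsc1, Tsc2, Insr, Irs1 and Irs2. All 10 were found, and all 10 had enough reads to be tested. RNA-Seq of polyadenylated RNA was performed on fibroblasts isolated by preplating from the atria of newborn Sprague-Dawley rats, and transfected with a control siRNA (si-NC, 3 libraries) or an siRNA against GPD1L (si-GPD1L, 3 libraries). The cells were grown in medium with fetal bovine serum and sequenced 24 h after transfection. All 6 libraries carry the same treatment label, "Atrial differentiation". No insulin, amino acid or rapamycin treatment is named, and no untransfected group is among these libraries. It is not stated if a single siRNA or several were used across the si-GPD1L libraries, nor whether libraries of a group came from separate cultures or animals, so the p-values measure the spread between these libraries, which may be technical.

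mTOR is a serine/threonine kinase that works in a pair of complexes. In mTORC1, with the scaffold Raptor (Rptor), it promotes protein, lipid and nucleotide synthesis and holds back autophagy. In mTORC2, with the scaffold Rictor, it phosphorylates AKT and related kinases. Insulin and IGF reach both complexes through the insulin and IGF receptors, which phosphorylate the docking proteins IRS1 and IRS2, and these bind PI3K. The TSC1-TSC2 complex keeps the GTPase Rheb inactive and so restrains mTORC1 until AKT phosphorylates TSC2. The sequencing addressed a possible link between GPD1L, fibrosis and the PI3K/AKT pathway. Kinase activity depends on phosphorylation, while the values given here are amounts of mRNA. In bulk RNA, fewer cells of a type and less RNA per cell cannot be told apart.

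The deposited counts summed to between 16892255 and 20149732 per library. Gpd1l, the siRNA target, had normalized counts, which are read counts scaled to a common library size, of 262, 332 and 313 in si-NC replicates 1, 2 and 3, against 220, 208 and 302 in the corresponding libraries labelled si-GPD1L. Its log2 fold change was -0.31 (standard error 0.15, 95% confidence interval -0.63 to 0.0071), which did not pass the test (adjusted p = 0.234, edgeR's quasi-likelihood test), and si-GPD1L replicate 3 lay within the si-NC range. Without that library it was -0.50 (adjusted p = 0.0733), and without si-GPD1L replicate 2 it was -0.21 (adjusted p = 0.579). The fibroblast markers summed to 33860 to 43690 TPM (transcripts scaled by length and library total) in si-NC and 41110 to 44260 TPM in si-GPD1L. The cardiomyocyte markers summed to 3072 to 3226 TPM in si-NC and 2854 to 3037 TPM in si-GPD1L, without overlap. In si-GPD1L, 2 of 10 fibroblast and 1 of 12 cardiomyocyte markers were lower (adjusted p-value under 0.05) and none was higher. Of all genes tested, 6.36% changed in either direction. All 20 listed interferon-stimulated genes were higher in si-GPD1L, with sums of 181 to 187 TPM in si-NC and 1833 to 2299 TPM in si-GPD1L. Endothelial markers summed to 42.2 to 55.1 TPM in si-NC and 70.9 to 76.2 TPM in si-GPD1L, where 5 of 11 tested were higher. Of all genes tested, 4.03% were higher with an adjusted p-value under 0.05. None of the 12 listed endothelial markers was at 0 counts in any library. Macrophage markers summed to 267 to 299.6 TPM in si-NC and 244 to 347 TPM in si-GPD1L. The smooth muscle and pericyte markers summed to 8702 to 9324 TPM and 8453 to 8870 TPM, respectively. Whether these other transcripts had a part in the values of the members was not tested.

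Within si-NC, replicate 1 stood apart from the other two libraries. The chi-square per degree of freedom of its gene counts was 21.5 and 29.9 against replicates 2 and 3, which differed from each other by 9.01, while the pairs of si-GPD1L libraries gave 4.12 to 6.22. Its counts fell off with gene length. Relative to the other si-NC libraries, the median log2 ratio of si-NC replicate 1 was 0.14 for genes of up to 2000 bases and -0.17 for genes longer than 6000 bases. The same medians were -0.12 and 0.13 for si-NC replicate 3, and at most 0.016 in size for the si-GPD1L libraries. The members were long genes, of 4118 to 10757 bases, and 7 of the 10 had less than 0.8 of the mean of replicates 2 and 3 in si-NC replicate 1. The lowest was Insr at 0.607 and the highest was Rictor at 1.01, with Deptor at 0.97 and Mlst8 at 0.945. Values without this library are given beside the results that it moved.

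**Figure D1:**
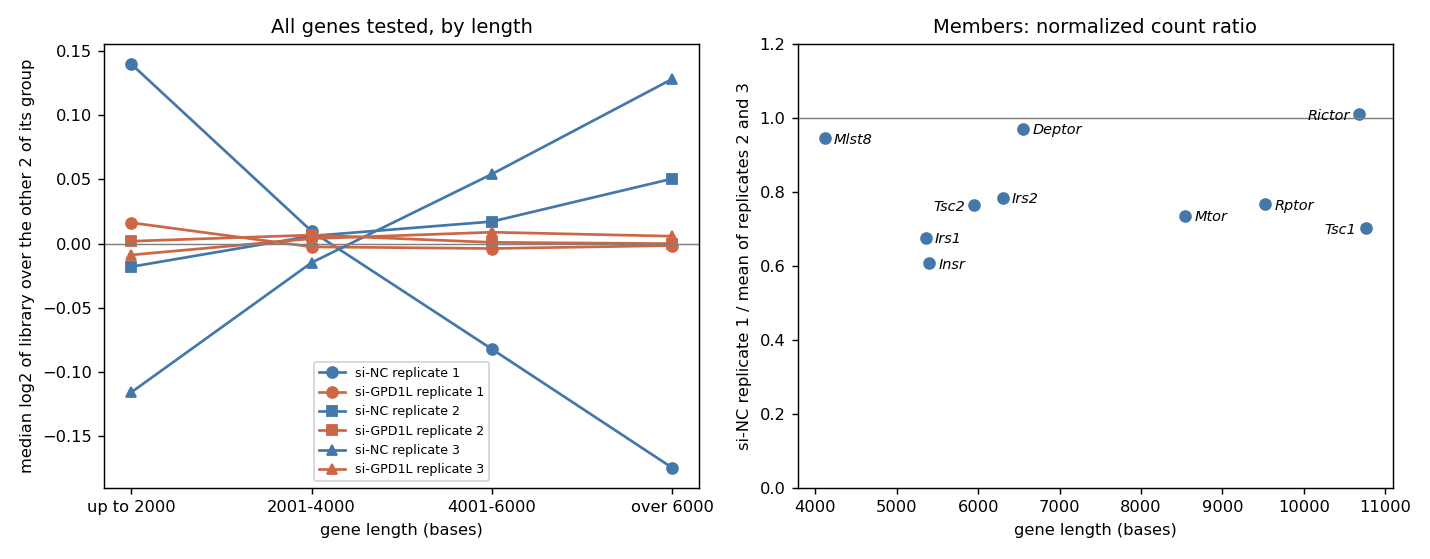
Left, the median log2 ratio of each library to the other 2 libraries of its group, for all genes tested in 4 bins of gene length in bases (blue, si-NC; red, si-GPD1L; circle, square and triangle, replicates 1, 2 and 3). Right, for each member, the normalized count of si-NC replicate 1 divided by the mean of si-NC replicates 2 and 3, against gene length. si-NC replicate 1 ran from 0.14 in the shortest genes to -0.17 in the longest, and Insr (0.607) and Rictor (1.01) were the ends of the range of the members.

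The upstream sequences of Rictor, Mtor and Insr are shown as examples that differ in the motifs they hold. RefSeq promoters on build GRCr8 were held for 7 of the 10 members, namely Mtor, Mlst8, Rictor, Tsc1, Tsc2, Insr and Irs1. None was held for Rptor, Deptor or Irs2. The 250 bases before the annotated start are printed 5′ to 3′ on the strand of the gene, and capitals mark matches on either strand to the GC box GGGCGG (bound by Sp1), the CCAAT box CCAAT (bound by NF-Y) or the FoxO element GTAAACA. Rictor lies at chr2:57539029-57539278 on the plus strand, Mtor at chr5:164167735-164167984 on the plus strand and Insr at chr12:6128804-6129053 on the minus strand.
Rictor: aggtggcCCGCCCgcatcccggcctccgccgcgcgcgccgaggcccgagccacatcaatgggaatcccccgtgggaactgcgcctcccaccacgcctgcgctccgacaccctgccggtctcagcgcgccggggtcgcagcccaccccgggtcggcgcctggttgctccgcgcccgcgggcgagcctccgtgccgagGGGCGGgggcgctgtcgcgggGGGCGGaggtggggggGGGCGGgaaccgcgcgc
Mtor: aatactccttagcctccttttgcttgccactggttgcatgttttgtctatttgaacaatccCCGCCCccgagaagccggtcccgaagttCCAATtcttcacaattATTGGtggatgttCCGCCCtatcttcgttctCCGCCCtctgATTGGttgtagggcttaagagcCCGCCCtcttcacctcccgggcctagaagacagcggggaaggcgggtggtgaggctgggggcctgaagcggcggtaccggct
Insr: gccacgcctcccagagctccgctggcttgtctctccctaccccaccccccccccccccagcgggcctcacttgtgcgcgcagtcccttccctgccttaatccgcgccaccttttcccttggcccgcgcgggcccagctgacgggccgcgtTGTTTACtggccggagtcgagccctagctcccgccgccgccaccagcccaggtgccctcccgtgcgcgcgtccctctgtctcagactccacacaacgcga
Rictor held 4 GC boxes and no CCAAT box, and 80.4% of its bases were G or C. Mtor held 4 GC boxes and 3 CCAAT boxes, with 56.8% G or C. Insr held neither, and had 1 FoxO element, which starts at base 151 of the printed sequence. None of the other 6 promoters held the FoxO letters. Of those not printed, Irs1 held 2 GC boxes, Tsc2 held 1 GC box, Mlst8 held 1 CCAAT box and Tsc1 held neither. Of all 33469 promoters of this length, 30.5% held a GC box, 34.0% a CCAAT box and 3.22% the FoxO element. The interferon element GAAANNGAA, found in 8.12% of all promoters, the E-box CACGTG (5.59%) and the cAMP element TGACGTCA (1.59%) were not among the letters of any of the 7. These matches are a description of the letters, and a link to the changes of the members was not tested.

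All 10 genes were expressed at middle levels. Levels between genes were compared per length, as deposited TPM, and the mean over the 6 libraries put the members between the 43.8th and 69.3rd percentile of the 14852 genes tested. In si-NC, Tsc2 had the highest level (31.2 ± 6.19 TPM, SD, n = 3), followed by Irs1 (27.9 ± 7.04 TPM) and Mtor (22.9 ± 4.86 TPM). Irs2 (15.0 ± 2.67 TPM), Mlst8 (13.99 ± 1.19 TPM), Tsc1 (13.8 ± 3.23 TPM) and Insr (13.5 ± 4.15 TPM) formed a middle group. By deposited TPM, the mTOR scaffolds and inhibitor were lowest, with Rptor at 10.5 ± 1.99 TPM, Rictor at 9.99 ± 0.417 TPM and Deptor at 9.35 ± 0.626 TPM. These TPM divide by the length of the gene entry, which was 9524 bases for Rptor and 10757 bases for Tsc1. Single transcripts of 6699 and 8062 bases held 99.7% and 97.8% of their counts, respectively. A shorter length would raise their levels, so their places in this order depend on the length used. Among neighbours in this order, the si-NC ranges of Mtor and Irs2 did not overlap, and Mtor was above Irs2 in 6 of 6 libraries. The si-NC ranges of each of the other neighbours overlapped, although Insr was above Rptor within each of the 6 libraries on the deposited lengths. In si-GPD1L, Mtor (27.3 to 29.3 TPM) and Irs1 (26.3 to 29.0 TPM) had overlapping ranges, and so did Rictor (12.4 to 13.05 TPM), Rptor (12.6 to 12.9 TPM) and Deptor (12.7 to 13.6 TPM).

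Deptor, Irs2 and Rictor were higher in si-GPD1L than in si-NC, and no member was lower with an adjusted p-value under 0.05. Deptor rose by 32.6%, Irs2 by 29.7% and Rictor by 20.2%. The kinase Mtor and the mTORC1 scaffold Rptor were higher in every si-GPD1L library than in every si-NC library but did not pass the test. The shared subunit Mlst8, the genes Tsc1 and Tsc2, the receptor Insr and the substrate Irs1 had overlapping groups. The number of members that passed was 3 of 10 with all libraries, 0 without si-GPD1L replicate 1 or 2, 1 without si-NC replicate 2 or si-GPD1L replicate 3, and 2 without si-NC replicate 3. The 3 members compare with 4.03% of the 14852 genes tested that were higher at this threshold and 6.36% that changed in either direction. Rictor and Irs2 were known from earlier results of these data to pass, so these counts are a description and test no enrichment. At an unadjusted p-value under 0.05 there were 4 members, against 22.4% of all genes. The study's second threshold, an absolute log2 fold change over 1, was met together with the first by 1.62% of all genes, and the largest log2 fold change among the members was 0.41. The groups did not overlap and were higher in si-GPD1L for 5 members, against 15.1% of all genes. The median log2 fold change of the members was 0.17, against -0.0049 for all genes tested. Among the 4514 genes tested with lengths between those of the shortest and longest member, the median was 0.038, 5.12% were higher with an adjusted p-value under 0.05, and 19.1% were higher without overlap. Of the 10 members, 9 had a log2 fold change above 0, against 7294 of the 14852 genes tested and 57.3% of the 4514 genes of like length. The count of members above 0 was 6 without si-NC replicate 1, where their median was 0.074.

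**Figure D2:**
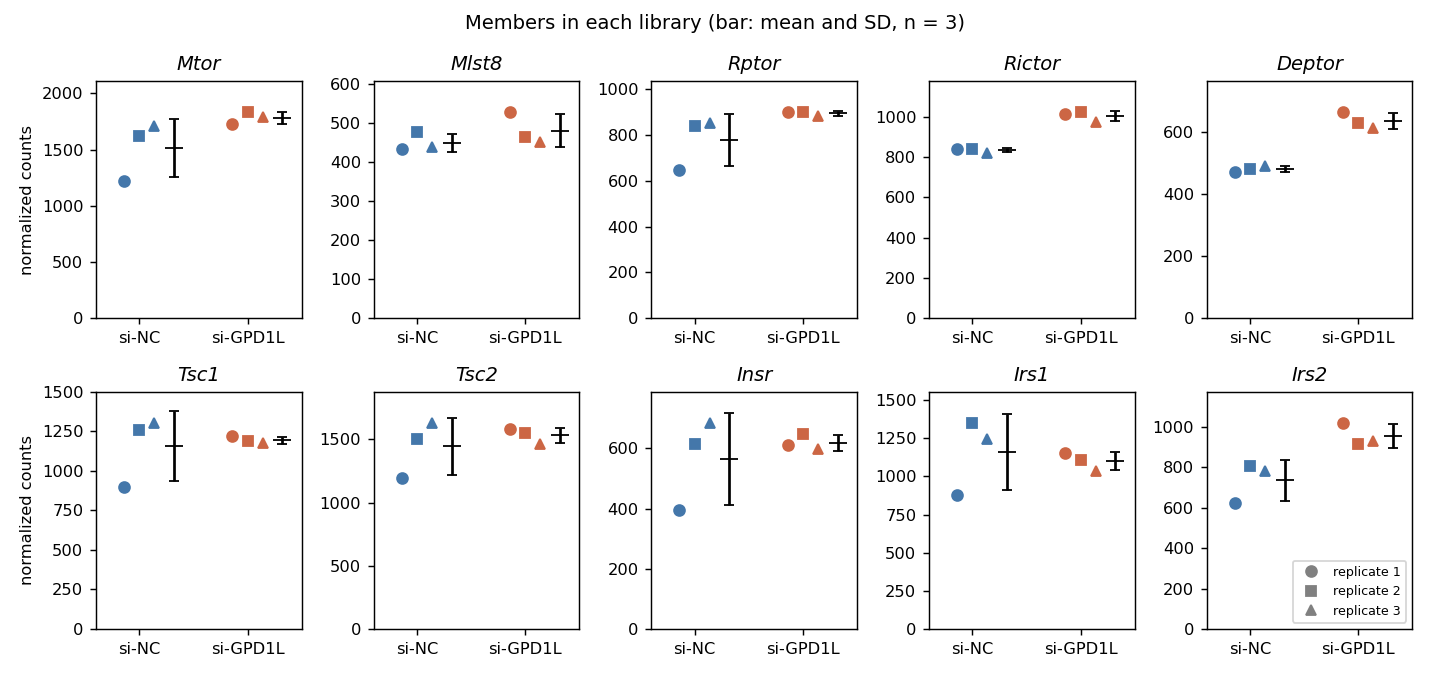
Normalized counts of each member in the 3 si-NC libraries (blue) and the 3 si-GPD1L libraries (red), with circle, square and triangle for replicates 1, 2 and 3 and a black bar for the mean and SD of the group. Rictor and Deptor separated the groups by a wide gap with little spread in either, which in si-NC was below that of counting error alone. In Mtor, Rptor, Tsc1, Tsc2, Insr, Irs1 and Irs2, si-NC replicate 1 lay below its group.

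The kinase itself is encoded by Mtor (NCBI gene 56718, chromosome 5 from 165263813 to 165373967 on the plus strand, in the rn6 coordinates of the gene table). Its normalized counts were 1225, 1620 and 1710 in si-NC replicates 1, 2 and 3, and 1729, 1835 and 1787 in si-GPD1L. The lowest si-GPD1L library was just above the highest si-NC library, and si-NC replicate 1 was far below both others. The log2 fold change was 0.23 (standard error 0.11, 95% confidence interval 0.0034 to 0.46, adjusted p = 0.217). Without si-NC replicate 1 it was 0.099. A gene of few reads, LOC102552055, overlaps Mtor on the opposite strand and had 4 to 43 raw counts. Mlst8 (NCBI gene 64226, chromosome 10 from 13839250 to 13845001 on the minus strand) encodes the small beta-propeller subunit that both complexes share. It had 433, 476 and 440.2 normalized counts in si-NC and 529, 464 and 451 in si-GPD1L. Its groups overlapped, with a log2 fold change of 0.096 (95% confidence interval -0.11 to 0.30, adjusted p = 0.594). Without si-GPD1L replicate 1, its highest library, it was 0.023.

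The scaffolds decide which complex mTOR joins. Rptor (NCBI gene 287871, chromosome 10 from 108750620 to 109058691 on the plus strand), the scaffold of mTORC1, had 648, 837 and 852 normalized counts in si-NC and 898, 900 and 882 in si-GPD1L. The 3 si-GPD1L libraries lay close together, and si-NC replicate 1 was far below the other si-NC libraries. Its log2 fold change was 0.20 (95% confidence interval -0.017 to 0.41, adjusted p = 0.264), and 0.080 without si-NC replicate 1. Rictor (NCBI gene 310131, chromosome 2 from 56013898 to 56105818 on the plus strand), the scaffold of mTORC2, had 839, 840 and 822 normalized counts in si-NC and 1011, 1023 and 974 in si-GPD1L. All si-GPD1L libraries were above all si-NC libraries, and si-NC replicate 1 did not stand apart here. The spread of Rictor within si-NC (1.246% of its mean) was below the 3.48% that counting error alone gives for its mean count. The log2 fold change of Rictor was 0.27 (standard error 0.069, 95% confidence interval 0.12 to 0.42, adjusted p = 0.0402). After correction for the dependence on gene length, an alternative chosen after the data were seen, it was 0.16 (adjusted p = 0.22), and Rictor, at 10677 bases, was the second longest of the members. Its adjusted p-value was under 0.05 in 5 of 14 alternatives (range 0.0107 to 0.22). Of the fits that left out 1 library, Rictor passed without si-NC replicate 1 (adjusted p = 0.0107) and not without si-NC replicate 2 or 3 (0.104 and 0.0662) or si-GPD1L replicate 1, 2 or 3 (0.174, 0.211 and 0.0978), with log2 fold changes of 0.25 to 0.28.

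DEPTOR binds mTOR in both complexes and inhibits them. Deptor (NCBI gene 314979, chromosome 7 from 94795161 to 95000750 on the plus strand) had 469, 478 and 488 normalized counts in si-NC and 663, 628 and 612 in si-GPD1L. The gap between the groups, from 488 to 612, was wider than the range within either group, and si-NC replicate 1 lay with its group. The spread of Deptor within si-NC (2.02% of its mean) was below the 4.59% that counting error alone gives for its mean count. Deptor had the largest log2 fold change and the smallest adjusted p-value of the 10 members (0.41, standard error 0.081, 95% confidence interval 0.23 to 0.58, adjusted p = 0.0105). The adjusted p-value was under 0.05 in 12 of 14 alternatives (range 0.00054 to 0.0802). The exceptions were the fits without si-GPD1L replicate 1 (log2 fold change 0.37, adjusted p = 0.0802) and without si-GPD1L replicate 2 (log2 fold change 0.41, adjusted p = 0.0661). The log2 fold change was 0.36 with the length trend removed.

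The TSC genes encode the brake on mTORC1, with TSC2 as the GTPase-activating subunit and TSC1 as its stabilizing partner. Tsc1 (NCBI gene 60445, chromosome 3 from 7219955 to 7269063 on the plus strand) had 899.8, 1260 and 1305 normalized counts in si-NC and 1219, 1187 and 1176 in si-GPD1L. Apart from si-NC replicate 1, the si-NC libraries were the higher ones. Its log2 fold change was 0.048 (95% confidence interval -0.20 to 0.30, adjusted p = 0.85), and turned to -0.10 without si-NC replicate 1. Tsc2 (NCBI gene 24855, chromosome 10 from 13962006 to 13996684 on the minus strand) had 1197, 1504 and 1633 normalized counts in si-NC and 1581, 1552 and 1465 in si-GPD1L. The groups overlapped, and the log2 fold change was 0.085 (95% confidence interval -0.13 to 0.30, adjusted p = 0.671), or -0.035 without si-NC replicate 1. The intervals run from -13.1% to 23.1% for Tsc1 and from -8.81% to 23.4% for Tsc2.

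Of the receptor and its docking proteins, Irs2 rose and Insr and Irs1 did not pass the test. Insr (NCBI gene 24954, chromosome 12 from 1682527 to 1816414 on the minus strand) encodes the insulin receptor and had 394.5, 614 and 685 normalized counts in si-NC and 609.5, 649 and 598 in si-GPD1L. The spread within si-NC was 26.8% of the mean, the widest of the members. Its log2 fold change was 0.13 (95% confidence interval -0.20 to 0.47, adjusted p = 0.666) and -0.071 without si-NC replicate 1. Irs1 (NCBI gene 25467, chromosome 9 from 88033668 to 88086488 on the minus strand) had 880.0, 1353 and 1249 normalized counts in si-NC and 1153, 1111 and 1036 in si-GPD1L. The si-GPD1L libraries fell between si-NC replicate 1 and the other si-NC libraries. Its log2 fold change was -0.078 (95% confidence interval -0.35 to 0.20, adjusted p = 0.769). Without si-NC replicate 1 it was -0.24 (adjusted p = 0.0212), and without si-NC replicate 2 it was 0.045 (adjusted p = 0.885). Irs2 (NCBI gene 29376, chromosome 16 from 83824515 to 83848569 on the plus strand) encodes the substrate whose transcription is raised by FoxO factors in liver. It had 621, 805 and 779.9 normalized counts in si-NC and 1021, 913.5 and 928 in si-GPD1L. Every si-GPD1L library was above every si-NC library, and the log2 fold change was 0.38 (standard error 0.099, 95% confidence interval 0.16 to 0.59, adjusted p = 0.0445). It was 0.27 (adjusted p = 0.0199) without si-NC replicate 1, and the adjusted p-value was under 0.05 in 8 of 14 alternatives (range 0.00173 to 0.204). Irs2 did not pass without si-GPD1L replicate 1, 2 or 3 (adjusted p = 0.204, 0.139 and 0.112) or without si-NC replicate 2 (adjusted p = 0.0556), where its log2 fold change was 0.32, 0.40, 0.39 and 0.44, respectively.

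**Figure D3:**
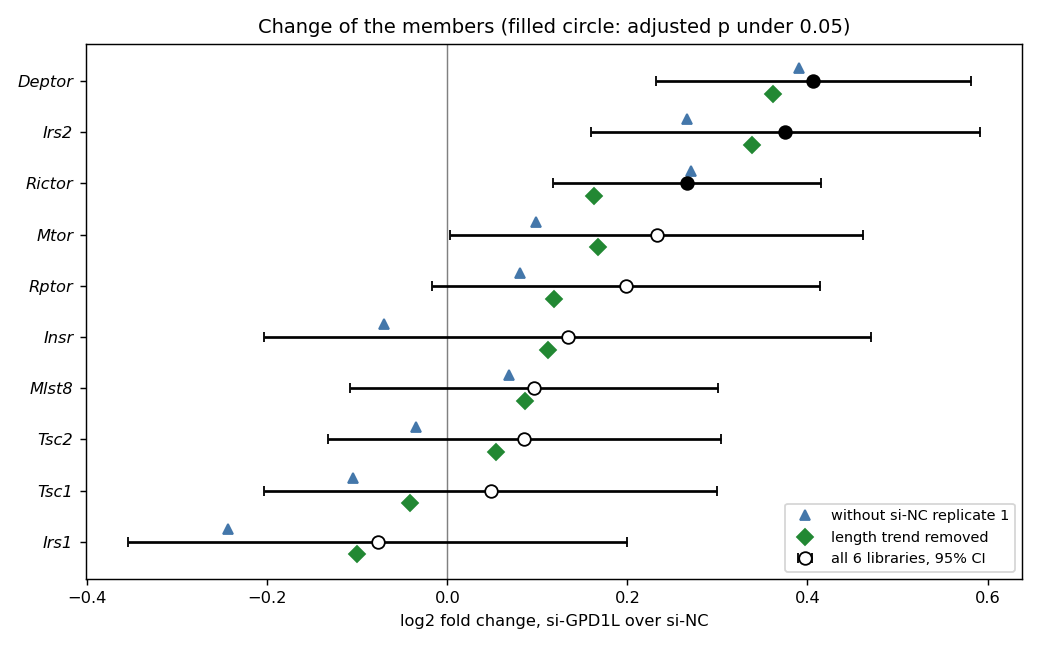
Log2 fold change of each member in si-GPD1L over si-NC, with the 95% confidence interval from all 6 libraries (circle, filled where the adjusted p-value was under 0.05), the value without si-NC replicate 1 (blue triangle) and the value after correction for gene length (green diamond). Deptor (0.41), Irs2 (0.38) and Rictor (0.27) are filled, and Insr, Tsc1 and Tsc2 lie on the other side of 0 without si-NC replicate 1.

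A total of 5 ratios between members that are alternatives or partners in the pathway were compared. A factor shared by all genes of a library cancels in a ratio. An exact permutation test of 3 libraries against 3 cannot give a two-sided p below 0.10. The ratio of Irs2 to Irs1 in normalized counts was 0.706, 0.595 and 0.624 in si-NC and 0.886, 0.822 and 0.896 in si-GPD1L. The groups did not overlap, and the mix of the docking proteins' transcripts held 1.355 times as much Irs2 per Irs1 in si-GPD1L (exact permutation p = 0.10, 0.50 adjusted over the 5 ratios). Its log2 difference was 0.44, above 0 in every fit that left out 1 library. Irs2 was known from earlier results of these data to pass, so this ratio is not separate support for its rise. The other 4 ratios had overlapping groups with all libraries. In all 5 ratios si-NC replicate 1 was the highest si-NC library, so leaving it out could only raise the differences. Without si-NC replicate 1, the groups of Rictor to Rptor, Irs2 to Insr and Deptor to Mtor no longer overlapped and were higher in si-GPD1L. Their log2 differences were then 0.19, 0.33 and 0.29 in place of 0.056, 0.21 and 0.16, and these separations were not tested. With each library left out in turn these differences ran from -0.024 to 0.19, from 0.10 to 0.33 and from 0.081 to 0.29, respectively. The ratio of the mTORC2 scaffold to the mTORC1 scaffold, Rictor to Rptor, was 1.296, 1.004 and 0.965 in si-NC and 1.125, 1.14 and 1.10 in si-GPD1L (exact permutation p = 0.80). Irs2 to Insr was 1.34 ± 0.219 in si-NC and 1.545 ± 0.134 in si-GPD1L (exact permutation p = 0.30), and Deptor to Mtor was 0.321 ± 0.0535 and 0.356 ± 0.0237 (exact permutation p = 0.30), SD and n = 3 in each. Per length, the ratio of Tsc2 to Tsc1 in TPM was 2.27 ± 0.125 in si-NC and 2.32 ± 0.059 in si-GPD1L (exact permutation p = 0.70). The transcript of the catalytic partner was thus the more abundant of the pair in all 6 libraries.

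**Figure D4:**
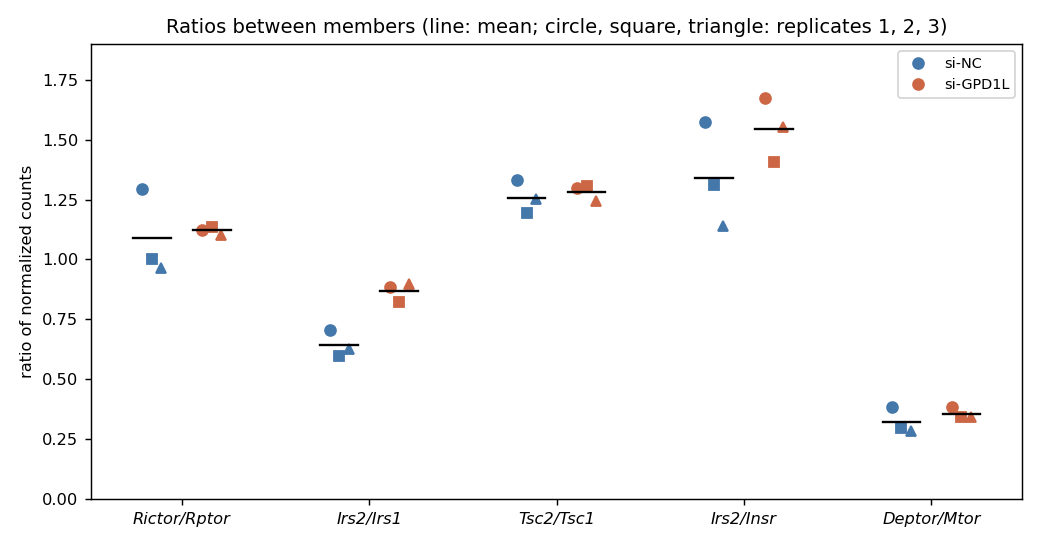
Ratios of normalized counts between pairs of members in each library (blue, si-NC; red, si-GPD1L; circle, square and triangle, replicates 1, 2 and 3; line, mean). With all libraries the groups separate for Irs2 over Irs1, from 0.595 to 0.706 in si-NC and from 0.822 to 0.896 in si-GPD1L, and si-NC replicate 1 (blue circle) is the highest si-NC library in all 5 ratios.

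In the deposited transcript table, Mtor, Insr, Irs1 and Irs2 have 1 transcript each, with counts identical to those of the gene, while Tsc2 has 12 and Tsc1 has 8. Transcripts of a gene held overlapping reads, since the 12 of Tsc2 added up to 1143% of the gene count. In the fit of all 37822 transcripts tested, where 5.89% had an adjusted p-value under 0.05, both Deptor transcripts rose (log2 fold changes 0.38 and 0.39, adjusted p = 0.0153 and 0.0122, respectively) and so did that of Irs2 (0.36, adjusted p = 0.0436). For the 3 Rictor transcripts the log2 fold change was 0.24 and the adjusted p-value 0.0604 to 0.0653. No transcript of Rptor, Mlst8, Tsc1 or Tsc2 passed the test. Among the Rptor transcripts, 1 held 99.7% of the gene's count and another 72.9%, and their log2 fold changes ran from 0.17 to 0.23.

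Around the members, 7 lists of other genes of the pathway held 136 genes, of which 133 were found and 130 tested. Of these, 2 rose and 8 fell with an adjusted p-value under 0.05, or 7.69%, close to the 6.36% of all genes tested, and their median log2 fold change was 0.025. The genes that passed lay on several branches of the pathway. The count of 10 was 25 without si-NC replicate 1, 16 without si-NC replicate 3, 3 without si-GPD1L replicate 3, and 1, Enpp1, without si-GPD1L replicate 1 or replicate 2.

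Of the 25 receptor-proximal adaptors and regulators tested, Enpp1 rose and Foxo4 fell. Enpp1 encodes an ectonucleotide pyrophosphatase that makes pyrophosphate and is known to bind and inhibit the insulin receptor. It had 1841, 1935 and 1947 normalized counts in si-NC and 3250, 3092 and 2806 in si-GPD1L. The groups were far apart (log2 fold change 0.68 with a standard error of 0.074, adjusted p = 9.0e-05), and it passed in each of 14 alternatives. Foxo4, a transcription factor that AKT keeps out of the nucleus, fell from 577.5 ± 40.01 to 462 ± 16.7 normalized counts (SD, n = 3; log2 fold change -0.32, adjusted p = 0.0484). Foxo4 passed in 7 of 14 alternatives (adjusted p up to 0.206) and not with DESeq2, while each of the other genes that fell passed in 10 to 12. The median of the list was 0.097. Of the 26 amino acid and energy sensors tested, Fnip1, a partner of folliculin in the activation of Rag GTPases, fell from 1584 ± 120.0 to 1243 ± 18.2 normalized counts (log2 fold change -0.35, adjusted p = 0.0149). Of the 11 Rheb, Rag and Ragulator genes tested, which hold mTORC1 at the lysosome, 10 had a log2 fold change below 0 and Lamtor5, a Ragulator subunit, fell from 523.5 ± 67.6 to 379 ± 28.7 (log2 fold change -0.46, adjusted p = 0.0268). The median of that list was -0.11. Among all genes tested of up to 2000 bases, the median was -0.072. Of all 14852 genes tested, 7294 had a log2 fold change above 0.

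Sterol genes fell among the 22 anabolic genes known to be driven by mTORC1. Sqle and Hmgcs1, enzymes of cholesterol synthesis, fell from 2765 ± 87.3 to 2142 ± 104.5 (log2 fold change -0.37, adjusted p = 0.00737) and from 6905 ± 262 to 5669 ± 239 normalized counts (log2 fold change -0.28, adjusted p = 0.0359). Insig1, which retains the sterol sensor in the endoplasmic reticulum, fell from 6753 ± 369 to 5276 ± 183 (log2 fold change -0.36, adjusted p = 0.0125). These 3 genes were named because they passed the test on these same libraries. The other 19 genes of this list did not pass the test, and the median of the list was 0.035. Of the 18 lysosome and autophagy genes that TFEB is known to drive, the autophagosome genes Map1lc3b (log2 fold change -0.33, adjusted p = 0.0127) and Gabarapl1 (-0.31, adjusted p = 0.0284) fell. That list had a median of -0.20, with 12 of 18 at an unadjusted p-value under 0.05 (22.4% of all genes), and 6 passed with DESeq2 (6.97% of all genes it tested). No gene passed among the 8 other mTOR partners, by edgeR's quasi-likelihood test or DESeq2, although 2 had an unadjusted p-value under 0.05 and 2 passed edgeR's exact test (10.3% of all genes). The one with the most counts, Akt1s1, the mTORC1 inhibitor PRAS40, had a log2 fold change of -0.27 (adjusted p = 0.0786). None of the 20 mTOR substrates and translation genes passed by the quasi-likelihood test, with 5 at an unadjusted p-value under 0.05, 3 passing DESeq2 and 1 passing the exact test. Eif4b, the gene with the most counts, had a log2 fold change of -0.23 (adjusted p = 0.0685).

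**Figure D5:**
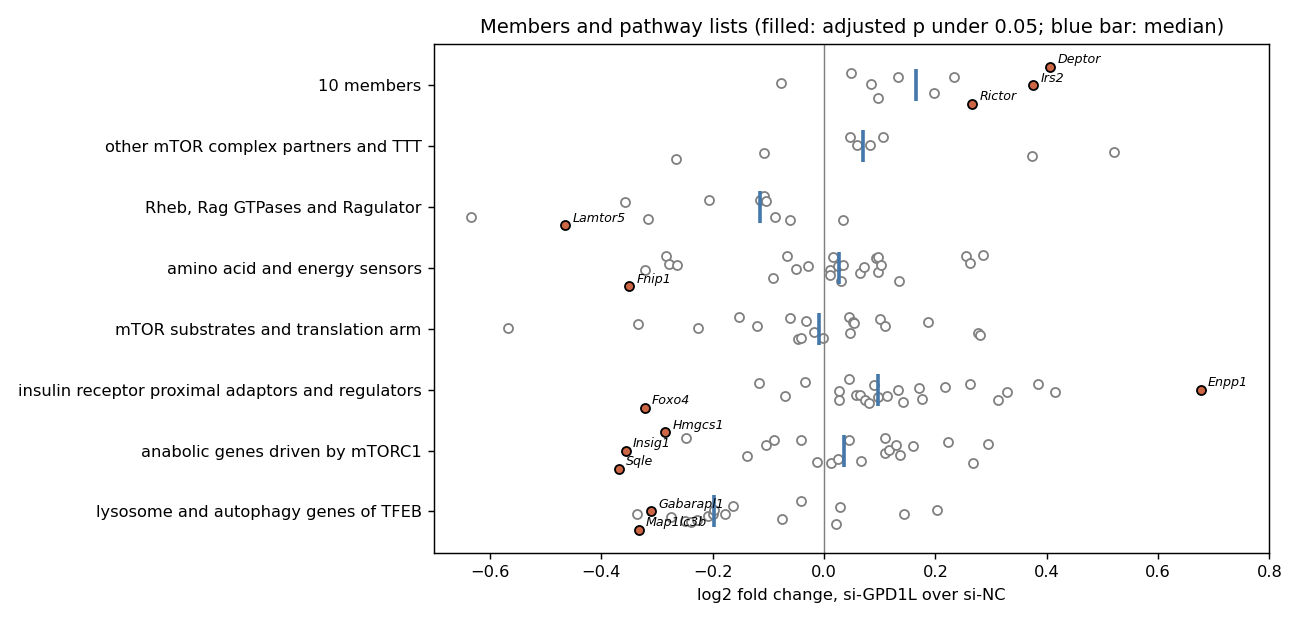
Log2 fold change in si-GPD1L over si-NC of the 10 members and of the tested genes of the 7 pathway lists, of which 1 is not drawn (filled and named where the adjusted p-value was under 0.05; blue bar, median; vertical positions within a row are only spread for legibility). The named members lie to the right of 0, and of the named pathway genes 8 lie to the left and Enpp1 to the right.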

How the data were processed

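Libraries of atrial fibroblasts from rats, 3 with si-NC and 3 with si-GPD1L, were sequenced on an Illumina platform with paired-end reads. The processing notes name bcl2fastq, HISAT2 2.1.0, HTSeq 0.12.4 and the rn6 build, without roles or options, and whether counting used strand is not given in the sources used here. The authors deposited raw read counts per gene and per transcript, without normalization, and gave TPM for each gene, which matched the count per base of gene length, rescaled to a common total. Reads of overlapping genes on opposite strands, and of transcripts of a gene, may not be separable. The deposited comparison of the groups and the GO and KEGG tables were not used.

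From the counts, edgeR 4.0.16 (R 4.3.3) kept 14852 genes by filterByExpr, scaled libraries by TMM and tested si-GPD1L against si-NC by the quasi-likelihood F test, with Benjamini-Hochberg adjustment over all genes tested. Unless another test is named, adjusted p-values are from this fit. It was first run on simulated counts that held no dependence on gene length, unlike the counts of si-NC replicate 1. The standard error is the log2 fold change divided by the square root of F. The replicate numbers in the labels did not pair the libraries. Ratios were compared by exact permutation over libraries (scipy 1.17.1). Alternatives covered normalization, test (DESeq2 1.42.0, exact test), filter, replicate block, each library left out and gene length. Intervals cover the spread between 3 libraries. The members and lists were chosen with earlier results of these data known. From each list, up to 4 genes with an adjusted p under 0.05 were named, or the one with the most counts where none passed; 1 gene that the rule names is not reported here. Promoter sequences are from RefSeq.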

Additional observations from a re-analysis of the deposited data

How the results depend on the processing

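Among the members, the number with an adjusted p-value under 0.05 was 3, and it was 1 under upper-quartile normalization (Deptor) and 0 where the log2 fold change also had to exceed 1 in size. With each library left out in turn it ran from 0 to 4. Leaving out either si-GPD1L replicate 1 or replicate 2 gave 0, where 3 members had an unadjusted p-value under 0.05 in each (edgeR's quasi-likelihood test), and 4 without si-NC replicate 1, where Irs1 was added as lower. DESeq2's Wald test with all libraries called Deptor and Irs2. With the replicate number as a replicate block it was 1 (Deptor), and same-numbered libraries did not deviate together (correlations across genes of -0.012, -0.0059 and 0.043), and not every library correlated best with its own number.

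The number of genes called was 945, and 1528 with the exact test, 1929 without a filter, 240 with the fold change threshold and 361 to 1531 with a library left out. Pathway genes called numbered 10, and 17 under upper-quartile normalization, 19 with DESeq2, 21 with the exact test, 23 without a filter, 19 with the length trend removed and 1 to 25 with a library left out. The log2 fold change of Tsc1 was -0.042 with the length trend removed. With a library left out, it ran from -0.10 to 0.14 for Tsc1, -0.035 to 0.18 for Tsc2, -0.071 to 0.30 for Insr and -0.24 to 0.045 for Irs1, and the log2 difference of Rictor to Rptor from -0.024 to 0.19 and that of Tsc2 to Tsc1 from -0.0082 to 0.071. The causes of these shifts were not tested beyond gene length. Gpd1l was lower in every alternative (-0.50 to -0.21) and did not pass in any of the 14.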
